A study of Mus musculus with 24 samples.

Results

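Lungs of mice that had remote ischemic preconditioning before diesel exhaust (RIC+DE) were compared with lungs of mice that breathed the exhaust without conditioning (DE). The comparison rests on 6 of the 24 libraries of the series, 3 labelled RIC+DE and 3 labelled DE, and these labels alone chose them. All mice were male C57BL/6, 20 weeks old, and whole lung was profiled by poly(A)-selected RNA sequencing. RIC+DE mice had 3 cycles of 5 min of blocked and 5 min of restored blood flow in the left leg, on 3 days a week for 4 weeks, before the exposure began. RIC+DE and DE mice both breathed diesel exhaust for 30 min a day on 5 days a week for about 8 weeks, which the submitters describe as a model of lung fibrosis. The labels name no sham procedure for DE and no drug in either group. Of the 6 other groups, with 3 libraries each, C is untreated, RIC had conditioning alone, and DE+RIC had conditioning during the exposure. DE+PFD, RIC+DE+PFD and DE+PFD+RIC also had the antifibrotic drug pirfenidone, given orally 6 days a week at a daily 300 mg/kg.

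Remote ischemic conditioning is a way of protecting one organ by briefly starving another of blood. Release of nitric oxide, adenosine, bradykinin and other mediators from the limb, together with nerve signals, is thought to carry the effect to the distant organ. Diesel exhaust brings soot particles and polycyclic hydrocarbons into the airways, where macrophages take up the particles and the aryl hydrocarbon receptor and NRF2 switch on detoxifying enzymes. Lung fibrosis is the laying down of collagen by fibroblasts and myofibroblasts, driven largely by transforming growth factor beta (TGF-beta).

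All 3 RIC+DE libraries carry a March date and all 3 DE libraries an October date, so in these 6 libraries alone conditioning and batch cannot be told apart. The difference between the months was taken from the 5 groups that have libraries in both (C, RIC, DE+PFD, RIC+DE+PFD and DE+PFD+RIC), as a batch term in a model of all 24 libraries. Total counts were 13483886, 12437106 and 16925635 in RIC+DE libraries 1, 2 and 3, and 8885406, 6920161 and 5700391 in DE libraries 1, 2 and 3. Long transcripts took a larger share of the counts in the RIC+DE libraries. Over genes, the Spearman rho between exon length and a library's deviation from the median was 0.376 to 0.465 in RIC+DE and -0.307 to -0.21 in DE. It was between 0.181 and 0.453 in 5 of the 6 other March libraries and -0.271 to 0.286 in the 11 other October libraries. RIC+DE+PFD library 1, the remaining March library, was at -0.549, and it stood apart from all others on the first principal component (121, against -62.2 to 22.4). On the second component DE library 1 scored highest, at 63.8. Both enter the fit, and values without them are given where they matter.

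Over all genes, RIC+DE and DE lungs could not be separated at the threshold used, a Benjamini-Hochberg adjusted p under 0.05. edgeR's quasi-likelihood test called 0 of 17490 genes (0%), and the smallest adjusted p was 0.146, for Ccl21a and Atp2a1. At an unadjusted p under 0.05, 1367 genes (7.82%) were higher and 1657 (9.47%) lower in RIC+DE, 3024 in all, against 1841 without RIC+DE library 1. DESeq2 on the same model called 62 genes higher (0.344% of the 18040 with an adjusted p) and 18 lower (0.0998%). Leaving out RIC+DE library 2 gave 53 higher and 1 lower in edgeR, and leaving out DE library 2 gave 0 higher and 18 lower. The log2 fold changes of all genes had a median of 0.004, with 50.3% above 0. All 3 RIC+DE libraries were above all 3 DE libraries for 21% of all genes, and below them for 20.6%. Counts of list members at an unadjusted p under 0.05 or without overlap are to be read beside these shares. Every log2 fold change below is RIC+DE minus DE from the fit with the batch term, with its standard error (SE), unless another comparison is named. Levels are CPM, counts scaled to a common library size, in the order of libraries 1, 2 and 3. The genes named have the smallest p in each direction or in their list, or are readouts of fibrosis, inflammation and exhaust, and none of them passed the threshold in this fit.

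A rule that needs no batch term asks which genes had all 3 RIC+DE libraries outside the range of the 21 other libraries. There were 78 such genes above (0.446%) and 103 below (0.589%), and 78 (0.446%) and 106 (0.606%) where RIC+DE+PFD library 1 was left out of the range. RIC+DE+PFD, the group that holds the library that stood apart, had 79 above and 104 below by the same rule. The rule needs all 3 libraries of a group outside the range, not 1. Each of the 6 remaining groups had 10 or fewer above and 9 or fewer below. RIC+DE is the only group wholly from March, and 5 groups hold both months. Batch and conditioning therefore cannot be told apart in these counts. The 78 genes had a median exon length of 7030 bases and the 103 genes 2060 bases, against 4040 bases for all genes tested. Of the 78, 4 are members of the striated muscle lists, and the 103 include Ccl21a, Batf, Ifi30, Usp18, Scgb1a1, Bax and Ramp1, described with their groups.

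Of the 44 gene lists examined, skeletal muscle had the highest median log2 fold change. Skeletal muscle genes were high in RIC+DE libraries 1 and 3, and library 2 was near the DE libraries. For 4 of the 14 heart muscle genes all 3 RIC+DE libraries were above all 3 DE libraries, as for 21% of all genes. Mouse pulmonary veins carry a sleeve of heart muscle cells inside the lung, and skeletal muscle lies next to the lung in the chest wall and diaphragm. Summed over its 19 members, the skeletal muscle list was at 3401, 142.7 and 1772 CPM in RIC+DE and at 250.7, 129.7 and 150.6 CPM in DE. The 18 libraries of other groups were at 51.15 to 237.7 CPM. Genes of fat cells, another tissue next to the lung, summed to 2242, 212.9 and 442 CPM in RIC+DE, to 3381, 398.9 and 947 CPM in DE and to 193.1 to 1118 CPM elsewhere, so library 1 of each group was high for fat. Which tissue the muscle transcripts came from was not tested.

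Atp2a1, which pumps calcium back into the stores of fast fibres, was at 264, 3.62 and 116 CPM in RIC+DE and at 1.53, 1.79 and 1.76 CPM in DE. The groups did not overlap, and RIC+DE library 2 lay just above the highest of the 21 other libraries, 3.21 CPM. The log2 fold change was 7.40 ± 1.30 (edgeR adjusted p = 0.146). Without a batch term it was 6.24, and with the batch difference taken from one bridging group at a time it ran from 3.79 to 7.07. Tnnt3, the troponin T of fast fibres, was at 309, 3.85 and 159 CPM in RIC+DE and at 7.78, 7.76 and 7.21 CPM in DE. Here library 2 lay below every DE library, so the groups overlapped (log2 fold change 4.75 ± 0.95, adjusted p = 0.225). Mybpc2, a myosin-binding protein of fast fibres, was at 46.4, 3.17 and 27.3 CPM in RIC+DE and at 2.63, 3.28 and 2.46 CPM in DE. Its library 2 stood within the DE range. Neb, which sets the length of thin filaments, was at 109, 2.04 and 40.8 CPM in RIC+DE and at 1.09, 1.19 and 1.23 CPM in DE. Mylk2, a kinase of skeletal myosin light chain, was at 18, 0.754 and 7.39 CPM in RIC+DE and at 0.219, 0.299 and 0.176 CPM in DE. For Neb and Mylk2, which are not in the muscle lists, all 3 RIC+DE libraries were above all 3 DE libraries. Of the 19 skeletal genes, 13 passed the filter on low counts, all 13 with a fold change above 0, 11 of them at an unadjusted p under 0.05, and 1, Atp2a1, with no overlap between the groups (21% of all genes had RIC+DE wholly above DE). The median of the 13 was 3.76, and 2.96 without RIC+DE library 1.

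**Figure D1:**
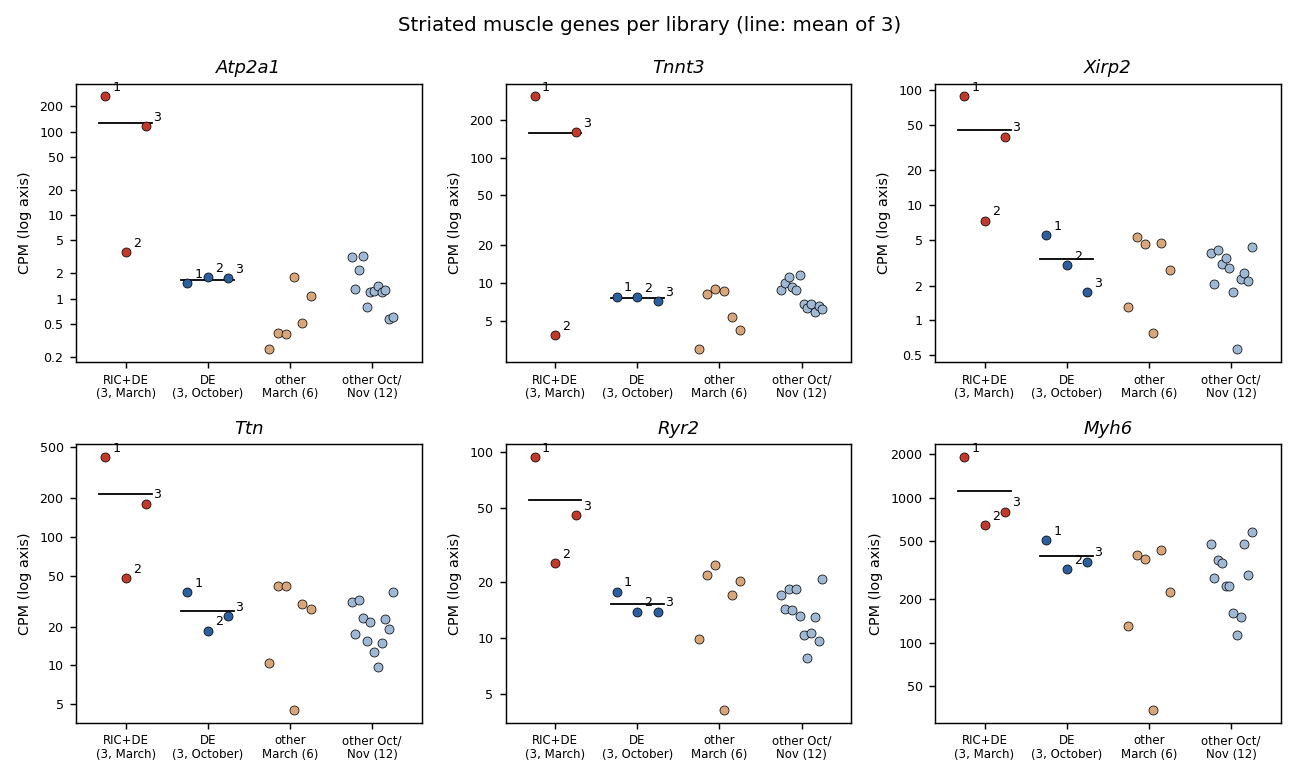
CPM of 6 striated muscle genes on a log axis in the 3 RIC+DE libraries, the 3 DE libraries, the 6 other March libraries and the 12 other October and November libraries, with 1 point per library, replicate numbers beside the RIC+DE and DE points, and a line at the mean of 3. Libraries 1 and 3 of RIC+DE stand far above the rest for Atp2a1 and Tnnt3, while Ryr2 and Myh6 have all 3 RIC+DE libraries above the 21 others.

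Among heart muscle genes, Ryr2, the calcium release channel, was at 93.9, 25.2 and 45.6 CPM in RIC+DE and at 17.7, 13.9 and 13.9 CPM in DE. All 3 RIC+DE libraries were above each of the 21 others, the highest of which was at 24.7 CPM (log2 fold change 1.99 ± 0.48, adjusted p = 0.242). Myh6, the main heavy chain of heart myosin in the adult mouse, was at 1912, 648 and 800 CPM in RIC+DE and at 510, 321 and 362 CPM in DE. It too lay above the 21 others, which reached 582 CPM (2.25 ± 0.71, adjusted p = 0.274). Ttn, the spring protein of the sarcomere in both muscle types, was at 419, 47.7 and 182 CPM in RIC+DE and at 37.1, 18.7 and 24.3 CPM in DE. Xirp2, an actin-binding protein of striated muscle, was at 88.0, 7.31 and 39.2 CPM in RIC+DE and at 5.48, 2.99 and 1.76 CPM in DE. For Ttn and Xirp2 library 2 was again the lowest of the 3 RIC+DE libraries, but above all 21 others. Myom1, which links thick filaments at the middle of the sarcomere, was at 189, 42.1 and 93.9 CPM in RIC+DE and at 30.1, 25.7 and 27.9 CPM in DE, with library 2 within the range of the other groups. All 14 heart muscle genes had a fold change above 0, 6 of them at an unadjusted p under 0.05, and their median was 1.16. Without a batch term the median was 0.74. Summed, the 14 were at 4977, 1495 and 2290 CPM in RIC+DE and at 1945, 1142 and 1239 CPM in DE, so library 2 lay below DE library 1, and 349.3 to 1575 CPM elsewhere.

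Since these genes were high together, the bases before their starts are shown for 4 of them, from the RefSeq promoter table (build GRCm38.p6), with one match to a short motif in capitals. The motif is CAGCTG, read by myogenic factors such as MyoD, for Atp2a1 (chr7:126463074-126463323, minus strand). It is CATTCC, the M-CAT element read by TEAD factors, here on the opposite strand, for Mybpc2 (chr7:44524670-44524919, minus strand) and Myh6 (chr14:54966608-54966857, minus strand). It is CTAAAAATA, a form of the MEF2 element, for Xirp2 (chr2:67445752-67446001, plus strand). Each run is the 250 bases before the annotated start, 5′ to 3′.
Atp2a1: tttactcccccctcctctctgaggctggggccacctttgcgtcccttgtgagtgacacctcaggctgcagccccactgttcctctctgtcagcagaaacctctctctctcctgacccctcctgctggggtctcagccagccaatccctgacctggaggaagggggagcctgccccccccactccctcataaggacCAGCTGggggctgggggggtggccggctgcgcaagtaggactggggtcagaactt
Mybpc2: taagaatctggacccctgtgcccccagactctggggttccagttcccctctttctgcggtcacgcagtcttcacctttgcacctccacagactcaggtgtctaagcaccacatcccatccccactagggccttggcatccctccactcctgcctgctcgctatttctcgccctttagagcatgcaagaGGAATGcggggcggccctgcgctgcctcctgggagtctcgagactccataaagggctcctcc
Myh6: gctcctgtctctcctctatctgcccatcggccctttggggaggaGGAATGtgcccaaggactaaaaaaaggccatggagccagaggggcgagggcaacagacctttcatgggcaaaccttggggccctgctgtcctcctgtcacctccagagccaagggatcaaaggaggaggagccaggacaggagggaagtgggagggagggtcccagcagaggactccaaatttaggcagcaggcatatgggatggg
Xirp2: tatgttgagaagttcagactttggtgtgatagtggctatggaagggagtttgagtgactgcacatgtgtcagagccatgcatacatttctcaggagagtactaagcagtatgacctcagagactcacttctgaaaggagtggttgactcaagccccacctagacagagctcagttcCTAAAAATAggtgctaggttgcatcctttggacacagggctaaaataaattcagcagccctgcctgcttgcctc

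The table held a promoter for 15 of the 19 skeletal and 13 of the 14 heart muscle genes, and both strands were searched. CAGCTG was found in 7 of the 15 skeletal (46.7%) and 3 of the 13 heart promoters (23.1%), against 12.8% of all 27025 promoters. CATTCC was found in 6 skeletal (40%) and 3 heart promoters (23.1%), against 12.6% of all. TATAAA was found in 3 skeletal (20%) and 2 heart promoters (15.4%), against 13% of all. CTAAAAATA was in none of the promoters of these lists and in 0.451% of all. A match describes the letters only, and the 4 motifs and 4 genes were chosen after their values were seen.

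Other genes with small p lie outside muscle contraction. Slc47a1, an exporter of organic cations, was at 10.7, 6.41 and 6.80 CPM in RIC+DE and at 3.29, 2.84 and 2.64 CPM in DE. All 3 RIC+DE libraries were above the 21 others (highest 5.17 CPM), and the log2 fold change was 1.87 ± 0.38 (adjusted p = 0.225). Ano9, of the anoctamin family of membrane proteins, was at 6.21, 2.79 and 3.43 CPM in RIC+DE and at 1.31, 1.64 and 1.23 CPM in DE. Sema6c, a transmembrane semaphorin, was at 9.44, 6.03 and 6.48 CPM in RIC+DE and at 4.38, 3.58 and 3.52 CPM in DE. For both genes RIC+DE was above DE in every library but within the range of the other groups. Mtus2, a microtubule-binding protein chosen after its values were seen, was at 24.3, 19.8 and 18.9 CPM in RIC+DE and at 12.9, 11.8 and 10.5 CPM in DE. It varied little within each group, and the 21 others reached 16.1 CPM (0.93 ± 0.21, adjusted p = 0.242, and 0.53 with the length trend removed).

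Genes of lymphoid tissue and of T and B cells were lower in RIC+DE than in DE, and DE library 1 stood highest. DE library 3 stood next for lymphoid tissue, but for B cells libraries of other groups, among them RIC library 2, lay above it. DE libraries 1 and 3 were also high for genes of fat cells. Levels of the fat cell list lay 2.91, -1.18 and -0.09 log2 units from the mean of all libraries in RIC+DE and 2.94, -0.31 and 1.07 in DE. Ucp1, the uncoupling protein of brown fat, was at 36.3, 0.151 and 0.214 CPM in RIC+DE and at 132, 1.34 and 26.5 CPM in DE, and at most 5.76 CPM elsewhere. Cidea, a lipid droplet protein of brown fat, was at 94.1, 2.56 and 3.96 CPM in RIC+DE and at 194, 4.48 and 30.8 CPM in DE, and at most 17.7 CPM elsewhere. Ucp1 and Cidea were chosen after their values were seen, and the part of such tissue in the immune values was not tested. In bulk tissue, fewer cells of a type and less RNA per cell cannot be told apart. Ccl21a, the chemokine with which lymphatic vessels and lymph node stroma draw T cells and dendritic cells, was at 40.9, 56.6 and 55.0 CPM in RIC+DE and at 333, 131 and 199 CPM in DE. All 3 RIC+DE libraries lay below the 21 others, whose lowest was at 58.2 CPM. The log2 fold change was -2.32 ± 0.40 (adjusted p = 0.146), and -2.12 without a batch term. Ccl21a has near-identical copies in the mouse genome, so reads may be split among them. Ccl19, which binds the same receptor, was at 0.388, 0.528 and 0.589 CPM in RIC+DE and at 24.3, 1.19 and 13.2 CPM in DE. Cd209b, a lectin of macrophages in lymphoid organs, was at 2.59, 1.89 and 1.34 CPM in RIC+DE and at 80.1, 1.34 and 30.6 CPM in DE. DE library 2 was at the level of RIC+DE for Cd209b and close to it for Ccl19. The list of lymphoid tissue stroma and macrophages had all 9 tested of 10 members below 0, 7 at an unadjusted p under 0.05 and 3 with RIC+DE wholly below DE (20.6% of all genes). Its median was -2.32, and -1.72 without DE library 1. Summed, it was at 88.19, 85.8 and 96.35 CPM in RIC+DE, at 669, 172.4 and 356 CPM in DE, and at 88.33 to 247.7 CPM in the 18 libraries of other groups.

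T cell genes followed the same order of libraries. Trac, the constant part of the T cell receptor alpha chain, was at 7.31, 9.43 and 9.37 CPM in RIC+DE and at 44.2, 16.1 and 24.1 CPM in DE (log2 fold change -1.35 ± 0.36, adjusted p = 0.253). Trbc2, of the beta chain, was at 10.2, 11.2 and 14.0 CPM in RIC+DE and at 77.9, 30.9 and 32.2 CPM in DE. Cd3g, of the CD3 complex, was at 7.37, 11.6 and 10.9 CPM in RIC+DE and at 33.3, 20.5 and 23.4 CPM in DE. None of these 3 overlapped between the groups, and DE library 1 was the highest each time. Of 17 T cell genes, 15 were below 0, 11 at an unadjusted p under 0.05 (9.47% of all genes), and 13 had RIC+DE wholly below DE (20.6%). Their median was -1.0, and -0.46 without DE library 1. B cell genes had a median of -0.77, and of -0.11 without DE library 1. Of these 14 genes, 14 were below 0, 2 at an unadjusted p under 0.05 (9.47% of all genes) and 8 wholly below DE (20.6%). Summed, they were at 566.8, 393.9 and 597.7 CPM in RIC+DE and at 2637, 716.5 and 906.7 CPM in DE. The 18 libraries of other groups were at 263.3 to 1384 CPM. Cd79a, the signalling chain of the B cell receptor, was at 33.2, 26.4 and 27.4 CPM in RIC+DE and at 182, 73.4 and 78.4 CPM in DE. All RIC+DE values lay below all DE values, and other groups spanned 12.6 to 142 CPM.

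**Figure D2:**
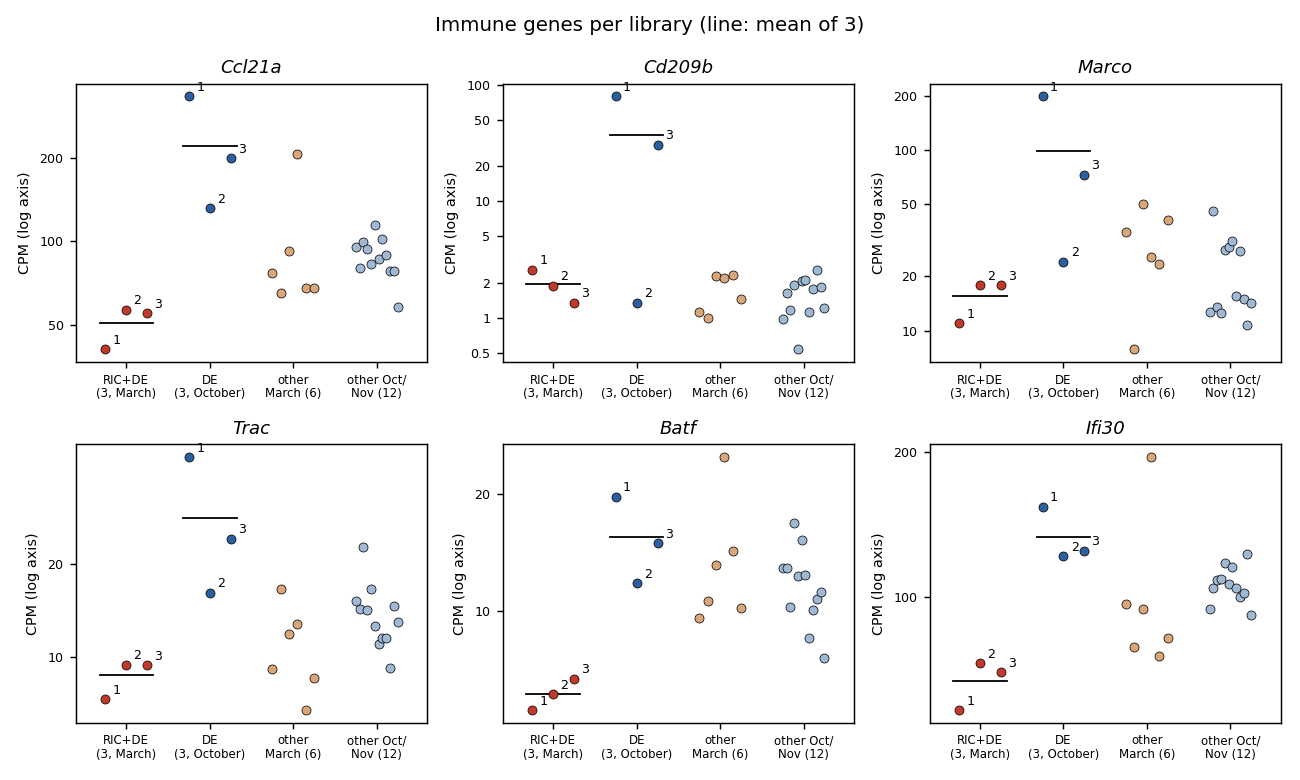
CPM of 6 immune genes on a log axis in the 3 RIC+DE, 3 DE, 6 other March and 12 other October and November libraries, with 1 point per library, replicate numbers beside the RIC+DE and DE points, and a line at the mean of 3. DE libraries 1 and 3 stand above the other groups for Cd209b and Marco, and the RIC+DE points for Ccl21a, Batf and Ifi30 lie below all 21 other libraries.

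Macrophage genes differed from each other. Marco, a scavenger receptor with which alveolar macrophages bind inhaled particles, was at 11.0, 17.8 and 17.9 CPM in RIC+DE and at 198, 24.0 and 73.0 CPM in DE. The groups did not overlap, but the other October libraries held 10.7 to 46.2 CPM, a range that takes in all of RIC+DE and DE library 2 (log2 fold change -3.20 ± 0.69, adjusted p = 0.242). The 18 alveolar macrophage genes as a list had a median of -0.43, with 2 at an unadjusted p under 0.05 (9.47% of all genes) and 5 wholly below DE (20.6%). It was -0.22 without RIC+DE+PFD library 1 and 0.07 in the groups without pirfenidone. Aif1, an actin-bundling protein of macrophages, was at 3.30, 4.07 and 4.82 CPM in RIC+DE and at 26.9, 8.06 and 14.2 CPM in DE. C1qb, of the first complement component, was at 41.6, 32.8 and 33.2 CPM in RIC+DE and at 125, 46.4 and 65.9 CPM in DE. Ly6c2, a marker of inflammatory monocytes, was at 8.47, 8.22 and 15.1 CPM in RIC+DE and at 51.4, 31.5 and 25.3 CPM in DE. Aif1, C1qb and Ly6c2 had no overlap between the groups. The 16 genes of monocytes and interstitial macrophages together had a median of -0.26, with 4 lower and 2 higher at an unadjusted p under 0.05.

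Chemokines and genes of antigen presentation stood mostly below 0. Ccl8, a chemokine for monocytes and T cells, was at 4.01, 2.87 and 3.00 CPM in RIC+DE and at 17.9, 4.03 and 12.8 CPM in DE, so DE library 2 was level with RIC+DE library 1. Ccl22, which draws regulatory and helper T cells, was at 8.21, 5.35 and 7.87 CPM in RIC+DE and at 27.3, 7.61 and 20.6 CPM in DE, and overlapped. Cxcl16, a chemokine bound to the membrane of macrophages, was at 51.7, 71.4 and 77.9 CPM in RIC+DE and at 102, 107 and 116 CPM in DE, without overlap and with the DE libraries close together (-0.87 ± 0.26, adjusted p = 0.274). Il33, an alarm signal held in the nuclei of alveolar type 2 cells, was at 61.0, 52.6 and 80.7 CPM in RIC+DE and at 64.0, 91.8 and 89.3 CPM in DE, and overlapped. Ccl5, a chemokine of T and NK cells, was at 22.1, 38.8 and 38.7 CPM in RIC+DE and at 144, 56.7 and 80.7 CPM in DE, without overlap. Of 27 tested cytokine and chemokine genes (31 listed), 22 were below 0, 11 at an unadjusted p under 0.05 (9.47% of all genes) and 7 wholly below DE (20.6%), with a median of -0.87. Of the classical inflammatory cytokines, Il6, Ccl2 and Tnf were at low counts. Il6 was at 0.582, 0.377 and 0.214 CPM in RIC+DE and at 0.986, 0.597 and 1.41 CPM in DE, and Ccl2 at 1.29, 0.980 and 1.23 CPM in RIC+DE and at 3.50, 0.597 and 2.11 CPM in DE. Il1b was at 23.0, 20.8 and 19.8 CPM in RIC+DE and at 35.2, 25.2 and 25.1 CPM in DE, so RIC+DE lay wholly below DE. Its log2 fold change was 0.09 ± 0.54 with the batch term and -0.43 without it. Tnf had one of 0.22 ± 0.64, below its standard error. H2-Aa, the alpha chain of an MHC class II molecule, was at 357, 398 and 528 CPM in RIC+DE and at 1020, 700 and 731 CPM in DE. Of the 8 MHC class II genes, 7 were below 0 and 5 wholly below DE (20.6% of all genes), with a median of -0.64. That median was -0.38 without DE library 1, and -0.03 without that library, RIC+DE library 1 and RIC+DE+PFD library 1.

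In 3 genes of this kind all RIC+DE libraries lay below all 21 others. Batf, a transcription factor of helper T cells and dendritic cells, was at 5.56, 6.11 and 6.70 CPM in RIC+DE and at 19.7, 11.8 and 14.9 CPM in DE, where the lowest of the 21 others was at 7.57 CPM (-1.57 ± 0.37, adjusted p = 0.242). Ifi30, a lysosomal enzyme that prepares antigens for MHC class II (chosen after its values were seen), was at 58.4, 73.1 and 70.1 CPM in RIC+DE and at 154, 122 and 125 CPM in DE (-0.97 ± 0.25, adjusted p = 0.25). Usp18, which restrains interferon signalling, was at 20.7, 19.4 and 20.5 CPM in RIC+DE and at 27.7, 27.5 and 25.3 CPM in DE (-0.62 ± 0.19, adjusted p = 0.274). With the batch difference taken from one bridging group at a time, Batf ran from -2.46 to -0.87 and Ifi30 from -1.79 to -0.52. Isg15, an interferon-induced ubiquitin-like protein, was at 9.38, 9.73 and 9.27 CPM in RIC+DE and at 22.8, 16.7 and 21.4 CPM in DE, without overlap, while other groups reached from 7.87 to 53.5 CPM. Of 21 tested interferon genes, 17 were below 0, 3 at an unadjusted p under 0.05 (9.47% of all genes) and 9 wholly below DE (20.6%). Their median was -0.38. Exon lengths of Ccl21a, Batf and Ifi30 were 870, 1406 and 981 bases, short against the 4040 bases of all genes tested. With the length trend removed, Ccl21a was at -1.77, Batf at -1.07, Ifi30 at -0.45 and Usp18 at -0.43.

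Of the genes by which fibrosis is usually read, Col1a1, Col3a1, Acta2 and Spp1 overlapped between the groups, while Fn1 and Timp1 did not. Col1a1, the main chain of type I collagen, was at 347, 168 and 458 CPM in RIC+DE and at 313, 180 and 351 CPM in DE, with full overlap and library 2 the lowest in both groups (0.64 ± 0.46, adjusted p = 0.437). Col3a1, of type III collagen, was at 463, 179 and 588 CPM in RIC+DE and at 496, 271 and 518 CPM in DE (-0.04 ± 0.42). Acta2, the actin of smooth muscle and myofibroblasts, was at 451, 222 and 287 CPM in RIC+DE and at 479, 376 and 464 CPM in DE, and also overlapped. Fn1, fibronectin, was at 514, 369 and 318 CPM in RIC+DE and at 266, 216 and 280 CPM in DE, higher in every RIC+DE library (0.97 ± 0.37, adjusted p = 0.274). Timp1, an inhibitor of matrix proteases, was at 3.30, 4.30 and 7.55 CPM in RIC+DE and at 8.21, 8.96 and 10.4 CPM in DE, lower in every RIC+DE library (-1.24 ± 0.43, adjusted p = 0.274). Spp1, osteopontin, a product of scar-associated macrophages, was at 38.8, 160 and 39.2 CPM in RIC+DE and at 58.7, 90.5 and 92.5 CPM in DE, with 1 RIC+DE library above and 2 below all of DE. Of 21 collagen and matrix genes, 11 were above 0 and 10 below, 3 each way at an unadjusted p under 0.05, with a median of 0.07 and of -0.18 without RIC+DE+PFD library 1. The 14 fibroblast genes had a median of 0.11, and 1 was at an unadjusted p under 0.05, lower.

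TGF-beta signalling genes stood above 0 for most members. Ltbp2, a matrix protein of the family that binds latent TGF-beta, was at 135, 136 and 121 CPM in RIC+DE and at 76.9, 54.3 and 84.0 CPM in DE (1.32 ± 0.46, adjusted p = 0.274). Smad4, the shared carrier of TGF-beta and BMP signals, was at 70.5, 85.4 and 80.4 CPM in RIC+DE and at 50.4, 50.6 and 50.5 CPM in DE (0.48 ± 0.16, adjusted p = 0.274). Tgfbr3, the co-receptor betaglycan, named after its values were seen, was at 104, 117 and 96.9 CPM in RIC+DE and at 70.1, 67.3 and 71.0 CPM in DE, above all 21 others (highest 92.9 CPM). None of the 3 overlapped between the groups. Ccn2, a target of TGF-beta in connective tissue, was at 246, 236 and 270 CPM in RIC+DE and at 123, 173 and 189 CPM in DE, also without overlap (0.81 ± 0.36, adjusted p = 0.278). Tgfb1, the ligand itself, was at 74.8, 89.5 and 82.5 CPM in RIC+DE and at 143, 97.6 and 119 CPM in DE. Its libraries did not overlap, yet its log2 fold change was 0.00 ± 0.24 once the batch term was in the fit and -0.54 without it. Of the 19 genes of the list, 15 were above 0, 5 of them at an unadjusted p under 0.05 (7.82% of all genes). RIC+DE lay wholly above DE for 9 (21%), and the median was 0.34. It was 0.16 without RIC+DE+PFD library 1 and 0.15 with the length trend removed. Smooth muscle and myofibroblast genes had a median of 0.67 with 4 of 13 at an unadjusted p under 0.05, all higher (7.82% of all genes). Cspg4, a proteoglycan of pericytes, was at 49.3, 27.7 and 25.2 CPM in RIC+DE and at 26.1, 17.5 and 22.3 CPM in DE. Myh11, smooth muscle myosin, named after its values were seen, was at 585, 246 and 209 CPM in RIC+DE and at 164, 170 and 207 CPM in DE. RIC+DE library 1 was the highest for both, and without it the median of the list was 0.21. Without that library, DE library 1 and RIC+DE+PFD library 1 the median was 0.03.

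**Figure D3:**
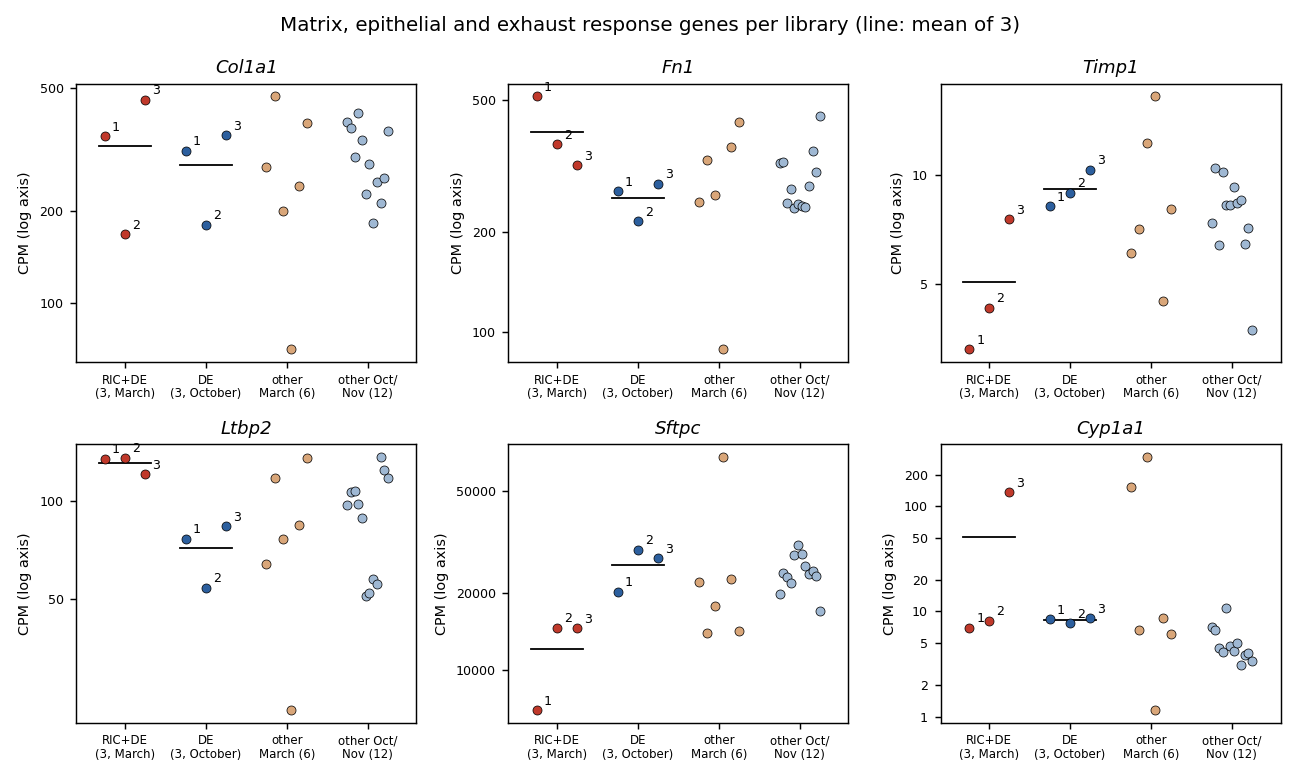
CPM of 6 genes of the matrix (Col1a1, Fn1, Timp1, Ltbp2), of alveolar type 2 cells (Sftpc) and of the aryl hydrocarbon receptor response (Cyp1a1) on a log axis in the same 4 sets of libraries, with 1 point per library, replicate numbers beside the RIC+DE and DE points, and a line at the mean of 3. Col1a1 overlaps between RIC+DE and DE, Fn1 and Ltbp2 are higher and Timp1 and Sftpc lower in each RIC+DE library, and Cyp1a1 is high in RIC+DE library 3 and in 2 other March libraries.

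Epithelial genes were mostly lower, and RIC+DE library 1 was often the lowest. The lung label held in all 6 libraries, where Sftpc and Scgb1a1 were among the most abundant transcripts. Sftpc, the surfactant protein made by alveolar type 2 cells, was at 6988, 14667 and 14585 CPM in RIC+DE and at 20295, 29595 and 27391 CPM in DE, without overlap (-1.20 ± 0.49, adjusted p = 0.274). Sftpd, a lectin of surfactant, was at 475, 766 and 919 CPM in RIC+DE and at 783, 1164 and 1062 CPM in DE, and overlapped. Of 15 type 2 genes, 13 were below 0, 5 at an unadjusted p under 0.05 and 3 wholly below DE (20.6% of all genes), with a median of -0.58 and of -0.36 without RIC+DE library 1. Krt7, a keratin of the type 1 list, was at 227, 416 and 333 CPM in RIC+DE and at 433, 665 and 635 CPM in DE, and the 12 type 1 genes had a median of -0.48. Scgb1a1, the secretory protein of club cells, was at 15676, 21146 and 24539 CPM in RIC+DE and at 29859, 55924 and 34533 CPM in DE. It lay below all 21 others, the lowest of which was at 24599 CPM, just over the 24539 CPM of RIC+DE library 3. The 13 club and secretory genes had a median of -0.47, and of 0.03 without a batch term. Rsph1, of the spokes of motile cilia, was at 31.3, 30.7 and 33.6 CPM in RIC+DE and at 33.0, 66.1 and 45.5 CPM in DE, overlapping, and the 12 cilia genes had a median of -0.54 and of -0.16 with the length trend removed. Itgb6, an integrin chain that releases active TGF-beta on injured epithelium, was at 23.3, 23.8 and 44.9 CPM in RIC+DE and at 39.6, 53.9 and 53.6 CPM in DE, overlapping.

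Blood vessel genes were divided as a list, with 9 of 15 above 0 and 5 wholly above DE (21% of all genes). Their median of 0.21 was -0.04 without RIC+DE+PFD library 1. Ace, the angiotensin-converting enzyme of lung capillaries, was at 1003, 1425 and 984 CPM in RIC+DE and at 596, 692 and 731 CPM in DE. Vwf, the clotting factor of larger vessels, was at 660, 961 and 1016 CPM in RIC+DE and at 414, 434 and 544 CPM in DE. Both were higher in every RIC+DE library, at unadjusted p under 0.05 and adjusted p = 0.274 and 0.283. Reln, a matrix protein of lymphatic vessels, was at 18.2, 17.9 and 16.0 CPM in RIC+DE and at 9.75, 5.97 and 11.2 CPM in DE, above all 21 others (highest 15.5 CPM). In the 8-gene lymphatic list, Reln was thus high where Ccl21a was low, and the median was -0.04.

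Of the pathways that answer to exhaust, the NRF2 list was mostly lower and the aryl hydrocarbon receptor list was divided. Cyp1a1, the enzyme most strongly induced through the aryl hydrocarbon receptor, was at 6.98, 8.14 and 137 CPM in RIC+DE and at 8.43, 7.76 and 8.61 CPM in DE. One RIC+DE library alone was high, and other March libraries ranged from 1.16 to 294 CPM against 3.36 to 10.7 CPM in other October libraries. Its log2 fold change was -0.14 ± 1.32 with the batch term, 2.62 without it and -2.88 without RIC+DE library 3. Cyp1b1, of the same pathway, was at 20.1, 8.90 and 20.0 CPM in RIC+DE and at 26, 11.3 and 15.1 CPM in DE, and overlapped. Arnt was at 84.0, 82.4 and 71.6 CPM in RIC+DE and at 44.8, 47.8 and 48.9 CPM in DE. Ahr was at 76.1, 63.3 and 77.3 CPM in RIC+DE and at 43.8, 49.0 and 54.8 CPM in DE. Neither overlapped, but other March libraries reached 80.9 CPM for Arnt and 91.9 CPM for Ahr. Of the 7 tested of 11 genes of the pathway, 3 were above 0 and 4 below, with 1 at an unadjusted p under 0.05, higher. RIC+DE lay wholly above DE for 3 (21% of all genes) and wholly below for 0. Their median was -0.09, and 0.66 without a batch term. Hmox1, heme oxygenase, induced by NRF2 and by heme, was at 25.8, 31.8 and 37.4 CPM in RIC+DE and at 48.5, 45.5 and 65.0 CPM in DE, without overlap (-0.99 ± 0.28, adjusted p = 0.274). Prdx1, a peroxiredoxin, was at 223, 230 and 316 CPM in RIC+DE and at 351, 457 and 370 CPM in DE, also without overlap. Nqo1, a quinone reductase under NRF2, was at 13.5, 9.57 and 18.5 CPM in RIC+DE and at 8.10, 10.7 and 7.56 CPM in DE, with 2 RIC+DE libraries above and 1 within DE. Of 21 NRF2 and antioxidant genes, 19 were below 0, 7 at an unadjusted p under 0.05 (9.47% of all genes) and 7 wholly below DE (20.6%). Their median was -0.47, or -0.15 without a batch term. For the 14 genes of the unfolded protein response the median was -0.52, with 4 at an unadjusted p under 0.05, and the 13 heat shock genes one of -0.42, with 2. The heat shock median was 0.015 without DE library 3 and -0.74 without RIC library 3.

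Genes of protein synthesis and respiration were mostly lower in RIC+DE, though most mitochondrially encoded mRNAs overlapped between the groups. All 30 ribosomal protein genes were below 0, 29 at an unadjusted p under 0.05 (9.47% of all genes), with a median of -1.19. All 30 had RIC+DE wholly below DE (20.6% of all genes). Rps19, of the small subunit, was at 245, 330 and 318 CPM in RIC+DE and at 697, 800 and 642 CPM in DE. Ribosomal protein genes have many near-identical pseudogenes, so their counts depend on how reads with several matches were handled. Of 20 tested nuclear genes of oxidative phosphorylation, 19 were below 0, 10 at an unadjusted p under 0.05 (9.47% of all genes) and 13 wholly below DE (20.6%). Their median was -1.02. Mitochondrially encoded mRNAs had a median of -1.45 over the 10 tested of 13. Of these 10, 8 were at an unadjusted p under 0.05 (9.47% of all genes) and 3 wholly below DE (20.6%). Summed, the 13 were at 23830, 9960 and 12130 CPM in RIC+DE and at 31550, 21530 and 18230 CPM in DE, so RIC+DE library 1 lay above DE libraries 2 and 3. Among them mt-Co3, of cytochrome c oxidase, was at low counts, with 1.16, 0.679 and 0.268 CPM in RIC+DE and 5.15, 3.43 and 2.81 CPM in DE. The abundant mt-Nd2 was at 2373, 1029 and 1160 CPM in RIC+DE and at 3520, 2729 and 2304 CPM in DE, and overlapped. The list medians moved with the length trend and with 1 library. The ribosomal median was -0.85 with the length trend removed and -0.66 without RIC+DE+PFD library 1, where Rps19 was at 2559 CPM. It was -0.52 with the batch difference taken from C and RIC, in a fit of the groups without pirfenidone, and -1.63 in a fit of the exposed groups alone. For oxidative phosphorylation the same 4 values were -0.55, -0.49, -0.25 and -1.47.

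**Figure D4:**
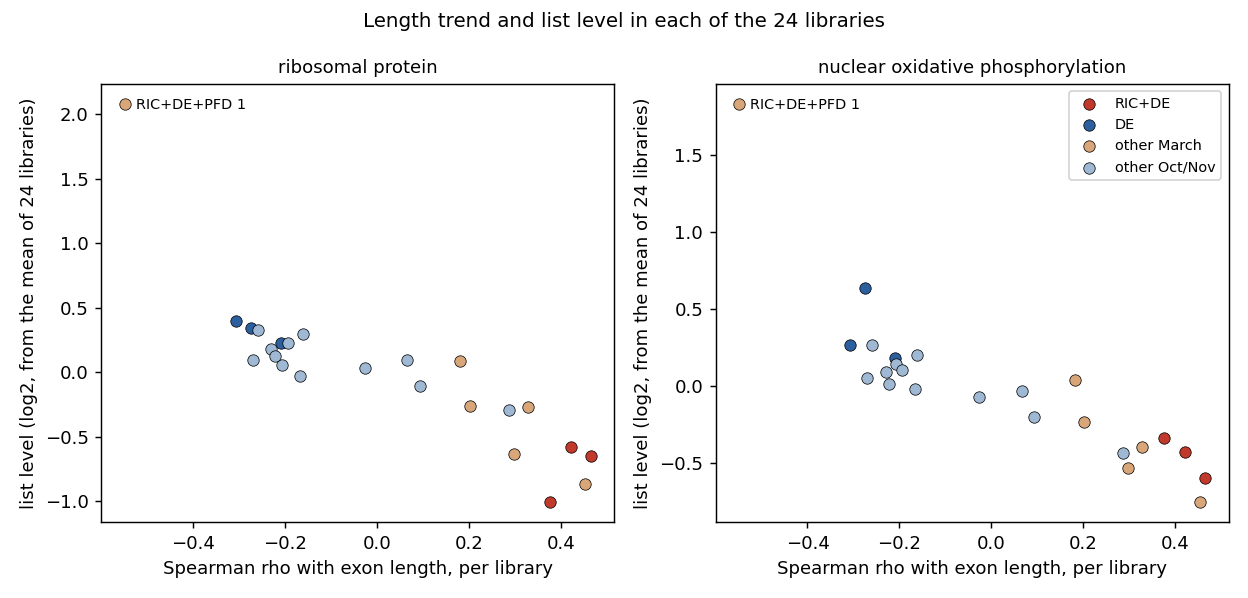
Median level of the ribosomal protein list (left) and the nuclear oxidative phosphorylation list (right) in each of the 24 libraries, as log2 units from the mean of all libraries, against the Spearman rho over genes between exon length and that library's deviation. The 3 RIC+DE libraries lie at rho 0.376 to 0.465 with low levels, the 3 DE libraries at -0.307 to -0.21 with higher levels, and RIC+DE+PFD library 1 stands alone at -0.549.

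Other lists gave smaller or less even differences. Erythroid genes had 10 of 10 tested below 0, 6 at an unadjusted p under 0.05, with a median of -1.04. Hbb-bs, a beta globin chain with near-identical copies, was at 754, 1622 and 792 CPM in RIC+DE and at 1927, 2922 and 2733 CPM in DE, without overlap. Proliferation genes had 16 of 17 below 0, 4 at an unadjusted p under 0.05, with a median of -0.60 and of -0.35 without DE library 1. Ccnb1, the cyclin of mitosis, was at 1.55, 1.06 and 1.93 CPM in RIC+DE and at 3.61, 2.69 and 2.64 CPM in DE, and Cenpm, a centromere protein, at 0.711, 0.528 and 0.375 CPM in RIC+DE and at 1.86, 1.49 and 1.23 CPM in DE. Neither overlapped, at low counts. Bax, a p53 target that opens mitochondria in cell death, was at 16.6, 25.4 and 26.1 CPM in RIC+DE and at 45.4, 36.6 and 38.5 CPM in DE, below all 21 others, while its list of 14 p53 and senescence genes had a median of -0.02. Clock genes had 13 of 15 above 0 but 0 at an unadjusted p under 0.05. Their median of 0.60 was -0.03 in the fit of groups without pirfenidone. Cry1, a repressor of the clock, was at 37.0, 42.7 and 21.7 CPM in RIC+DE and at 11.7, 8.21 and 9.67 CPM in DE, and ranged from 10.8 to 45.2 CPM in other October libraries. The sources used here do not give the hour at which lungs were taken.

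The mediators through which limb conditioning is thought to act were measured in the lung, not the limb. Of 19 tested genes of nitric oxide, adenosine, bradykinin, CGRP and related signals (24 listed), 11 were above 0 and 8 below, with 2 at an unadjusted p under 0.05, both lower, and a median of 0.17. Bdkrb2, the bradykinin B2 receptor, was at 10.1, 17.0 and 18.7 CPM in RIC+DE and at 9.31, 6.27 and 10.0 CPM in DE, above DE in each library by a small margin in library 1 (0.78 ± 0.44, adjusted p = 0.337). Ramp1, part of the receptor for the nerve peptide CGRP, was at 23.0, 27.0 and 24.0 CPM in RIC+DE and at 38.2, 31.3 and 38.1 CPM in DE, below all 21 others (lowest 29.0 CPM). Hypoxia genes had a median of 0.09, with 1 of 16 higher and 1 lower at an unadjusted p under 0.05, and immediate early genes one of 0.31, with 1 of 16 higher. The immediate early median was 0.04 without RIC+DE library 1 and -0.13 without a batch term.

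**Figure D5:**
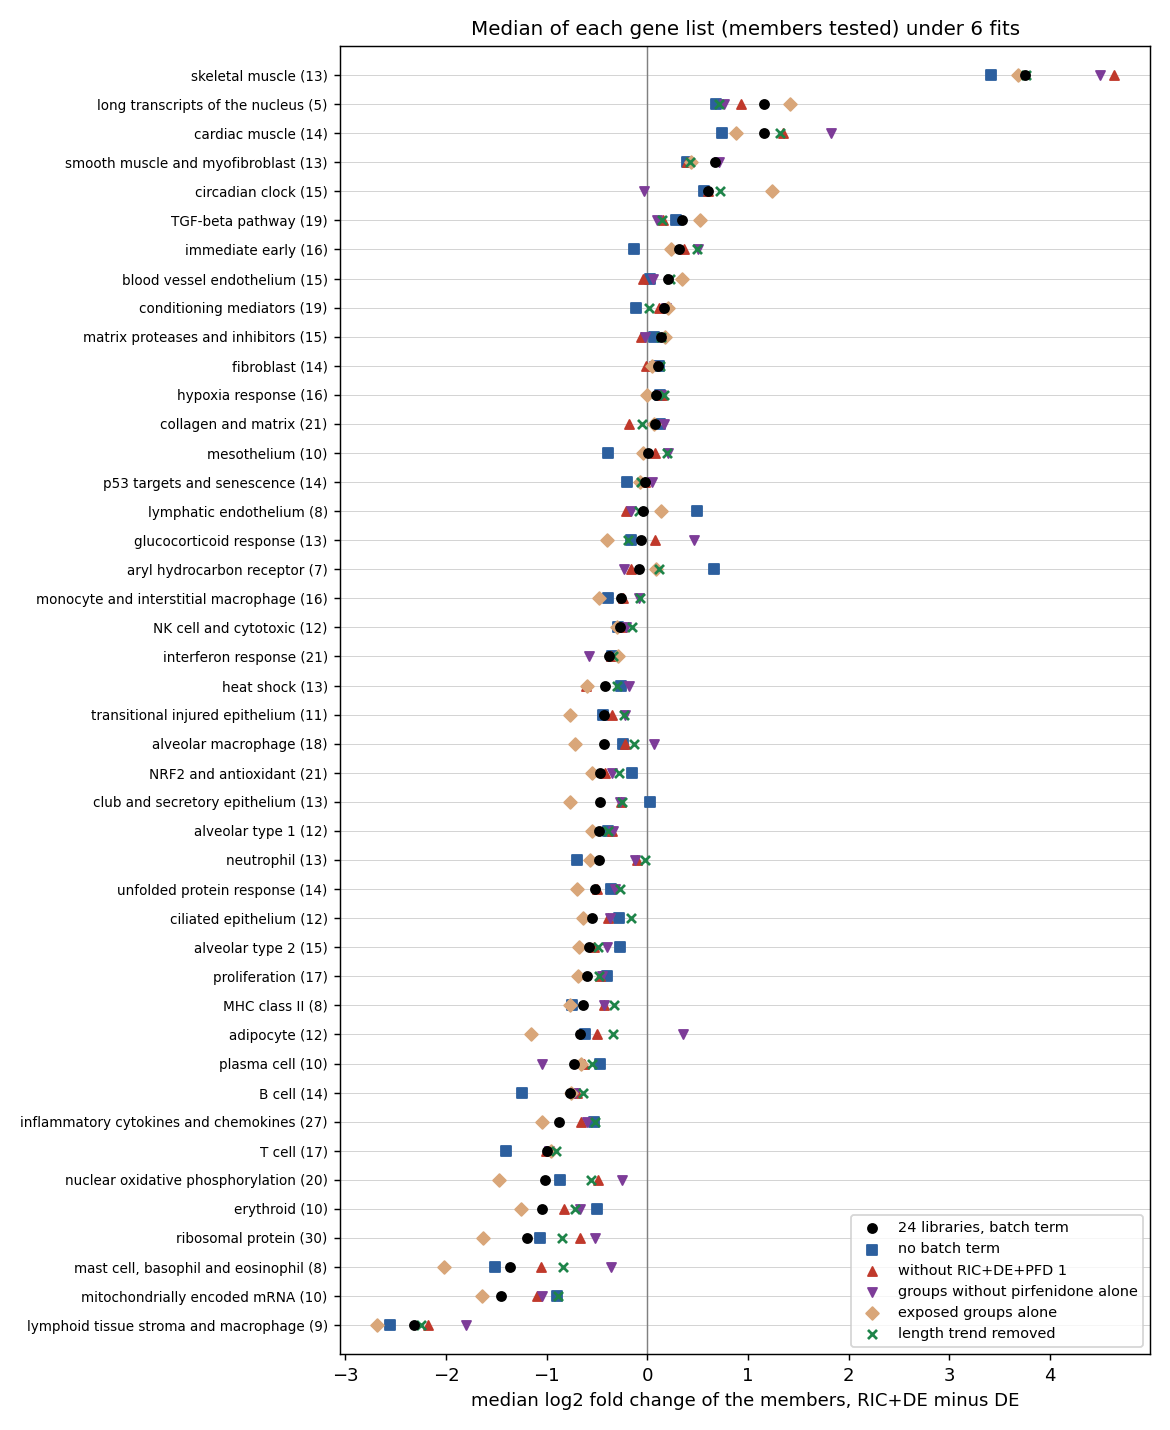
Median log2 fold change, RIC+DE minus DE, of the tested members of each of the 44 gene lists, from 6 fits, with the number of tested members in parentheses. The skeletal muscle list has the highest and the lymphoid tissue list the lowest median in the fit of all 24 libraries, and 16 lists, the clock list among them, change sign between fits.

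Of the 44 list medians, 28 kept 1 sign in 6 fits: with and without the batch term, without RIC+DE+PFD library 1, with the groups without pirfenidone alone, with the exposed groups alone, and with the length trend removed. Of these 28, 5 were above 0 and 23 below. All 6 fits kept DE libraries 1 and 3 and RIC+DE library 1. Some of the 28 changed sign where such a library was left out. The plasma cell median was 0.23 without DE library 1, and the heat shock median 0.015 without DE library 3. The neutrophil median was 0.04 without DE library 1, RIC+DE library 1 and RIC+DE+PFD library 1.

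Whether conditioning went with the same differences in unexposed lungs was tested as RIC+DE minus DE against RIC minus C. edgeR called 0 of 17490 genes, and at an unadjusted p under 0.05 the difference was higher for 497 (2.84%) and lower for 548 (3.13%). Without RIC+DE library 2 it called 11 higher, and without DE library 2 it called 2 lower. Atp2a1 had a log2 fold change of 7.40 ± 1.30 in exposed and of 0.31 ± 1.09 in unexposed lungs, a difference of 7.09 ± 1.74 (adjusted p = 0.617). For Ccl21a it was -2.32 ± 0.40 in exposed and 0.04 ± 0.33 in unexposed lungs, a difference of -2.36 ± 0.53 (adjusted p = 0.617). The ribosomal list had a median of -1.19 in exposed and -0.02 in unexposed lungs, the T cell list -1.0 and 0.19, and the heart muscle list 1.16 and 0.56. The difference was at an unadjusted p under 0.05 for 2 of 30 ribosomal, 11 of 17 T cell and 2 of 14 heart muscle genes. For no gene was the difference that went with conditioning thus shown to depend on exposure. Exposed and unexposed lungs were not compared directly here.

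With pirfenidone in both arms, RIC+DE+PFD minus DE+PFD is the matched comparison, and it shares no library with RIC+DE minus DE. The difference between the 2 comparisons was called for 0 of 17490 genes by edgeR, with 1574 (9%) higher and 3189 (18.2%) lower at an unadjusted p under 0.05, while DESeq2 called 411 higher and 1501 lower. The counts depended on single libraries. Without RIC+DE+PFD library 1, 792 of 17598 genes were at an unadjusted p under 0.05, against 4763 with it. edgeR called 206 higher and 1453 lower without RIC library 1, 642 and 2237 without RIC+DE+PFD library 2, 270 and 1767 without RIC+DE+PFD library 3, 17 and 0 without RIC+DE library 2, and 0 and 1 without DE library 2. Rps19 was at -1.40 ± 0.50 without and 1.11 ± 0.43 with pirfenidone, a difference of -2.50 ± 0.61 (adjusted p = 0.0742), and the ribosomal list at -1.19 and 1.01. RIC+DE+PFD library 1, with its high ribosomal level and its opposite length trend, is the only March library of its group. Ryr2 was at 1.99 ± 0.48 without and -1.10 ± 0.41 with pirfenidone (difference 3.09 ± 0.66, adjusted p = 0.0742), and Ccl21a at -2.32 ± 0.40 and 0.28 ± 0.33 (difference -2.59 ± 0.50, adjusted p = 0.0742). RIC+DE+PFD library 1 was also the extreme one of its group for both genes. Ryr2 was at 4.112, 13.005 and 9.688 CPM in RIC+DE+PFD and at 24.744, 18.46 and 13.16 CPM in DE+PFD. Ccl21a was at 206.75, 78.031 and 77.851 CPM in RIC+DE+PFD and at 92.013, 82.667 and 114.75 CPM in DE+PFD. How far these 2 differences rest on that library is not given here.

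Conditioning before the exposure was set against conditioning during it as RIC+DE minus DE+RIC. edgeR called 0 of 17490 genes, with 1101 (6.3%) higher and 1307 (7.47%) lower at an unadjusted p under 0.05, and DESeq2 called 116 higher and 5 lower. Leaving out RIC+DE library 2 gave 121 higher and 2 lower, and leaving out DE+PFD library 1 gave 22 and 1. The 2408 genes at an unadjusted p under 0.05 became 1005 without DE+RIC library 2 and 1261 without RIC+DE library 1. Muscle genes had the largest distances, with Atp2a1 at 7.77 ± 1.47 and Ttn at 4.47 ± 0.88 (adjusted p = 0.0749 for both), and all 13 tested skeletal muscle genes at an unadjusted p under 0.05. The lymphoid tissue list had a median of 0.14 between the 2 timings, but its members differed. Ccl21a was at 40.9, 56.6 and 55.0 CPM in RIC+DE and at 86.7, 102 and 89.3 CPM in DE+RIC, without overlap (-1.09 ± 0.43, adjusted p = 0.356). Cd209b was at 0.14 ± 1.08, Ccl19 at -0.59 ± 1.19 and Trac at -0.01 ± 0.39, and the median of the T cell list was -0.01. DE+RIC minus DE was -4.49 for Cd209b and -1.33 for Trac, but it uses the same DE libraries as RIC+DE minus DE, so the 2 comparisons are not separate. Ribosomal genes had a median of -1.07, and the DE+RIC libraries are from October and November. DE+RIC library 3 is the only November library and takes a batch term of its own. The fold changes that involve DE+RIC thus rest on its libraries 1 and 2, though CPM values are printed for all 3.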

How the data were processed

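The deposited file is a table of raw read counts per gene for 24 lung libraries, 3 in each of 8 groups. Per the labels' protocols, RNA was taken from lung kept in RNAlater with TRIzol, selected with oligo(dT) beads and made into strand-specific libraries. Per the submitters' processing notes, the tools were FastQC 0.12.1, fastp 0.23.4, STAR 2.7.11b, featureCounts, R 4.4.1 and DESeq2, with genome build GRCm39. For the annotation release, the strand setting and reads that match several places, the sources used here give nothing. Whether each library is a separate animal is not given either, so p-values measure the spread between these libraries, which may be technical. Libraries of RIC+DE and of DE differed from each other by more than counting noise, so none was counted as a copy.

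From the counts, edgeR 4.0.16 (R 4.3.3, limma 3.58.1) kept 17490 genes with filterByExpr, scaled libraries by TMM and fitted a quasi-likelihood model with batch (the month of the labelled date: 9 March, 14 October and 1 November library) and group, with 14 residual degrees of freedom and Benjamini-Hochberg adjustment at 0.05. DESeq2 1.42.0 was run beside it. What the batch date marks is not stated. The genes named are the 10 with the smallest p in each direction at a mean of at least 1 CPM, the 3 with the smallest p of each of 44 lists and 20 readout genes, of which part is printed. The members and lists were chosen with earlier results of these data known. Exon length, found for 93% of the genes tested, comes from the reference tables. The scripts were checked on simulated data. Deviations of same-numbered RIC+DE and DE libraries had correlations of 0.412, 0.287 and 0.0259, against -0.383 to 0.16 for differently numbered ones. These values do not settle whether the numbers mark pairs, and the main fit did not pair them. Alternatives were other normalizations, filters, batch terms, subsets of groups, a replicate block, quality weights and leaving out each library. Removing the length trend, leaving out 3 libraries together and the rule against all 21 other libraries were chosen after seeing the data.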

Additional observations from a re-analysis of the deposited data

How the results depend on the processing

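For RIC+DE minus DE, the count past the threshold of 0 in edgeR became 80 with DESeq2, 1129 with no filter on low counts, 102 with no batch term, 3784 with the 6 libraries alone, where batch and group cannot be told apart, and 1 with limma quality weights. With the replicate number as a block it was 16 with the batch term and 30 without it. Leaving out 1 library at a time gave 0 to 54 genes. For the difference from RIC minus C it was 289 with no filter and 0 to 11 with 1 library left out. For the difference from RIC+DE+PFD minus DE+PFD it was 1912 with DESeq2, 2179 with no filter, 1653 with no batch term, 6 with the replicate block and the batch term, and 0 to 2879 with 1 library left out. For RIC+DE minus DE+RIC it was 121 with DESeq2, 849 with no filter, 87 when the November library counted as October, 162 when no batch term was fitted, 167 under the replicate block and batch term, 122 under the block alone, and 0 to 123 with 1 library left out. The other alternatives gave 0. Ccl21a passed with DESeq2, no filter, no batch term, the 6 libraries alone, the block without a batch term, quality weights and without RIC+DE library 2 or DE library 2. Atp2a1, Xirp2 and Sema6c passed with the block and the batch term. Of the genes named, 8 turned direction under at least 1 of 39 settings. Without a batch term Cyp1a1 was at 2.62, Nqo1 at 0.66, Il1b at -0.43 and Tgfb1 at -0.54. With the 6 libraries alone they were at 2.63, 0.67, -0.42 and -0.53, and with the block and no batch term at 2.77, 0.67, -0.44 and -0.56. In the exposed groups alone Col3a1 was at 0.033, Cyp1a1 at 0.089 and Il1b at -0.20. In the groups without pirfenidone Acta2 was at 0.55, Spp1 at 0.40 and Tgfb1 at -0.14. With the length trend removed Acta2 was at 0.018, Spp1 at 0.048, Nqo1 at 0.12 and Tgfb1 at -0.13. Acta2 was at 0.065 without RIC+DE+PFD library 1 and DE library 1. DESeq2 gave Cyp1a1 at 0.067 and Tgfb1 at -0.0032, DESeq2's size factors gave Tgfb1 at -0.0042, a minimum of 1 CPM in 3 libraries -0.0098 and quality weights -0.10. With 1 library left out, Col3a1 ran from -0.40 to 0.31, Tgfb1 from -0.13 to 0.15, Cyp1a1 from -2.88 to 0.88, Nqo1 from -0.65 to 0.059, Il1b from -0.21 to 0.47 and Tnf from -0.14 to 0.82. The cause of these changes was not tested. Totals of 5700391 to 16925635 counts limit low genes such as Il6 and Tnf.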

Other observations

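Genes of mast cells, basophils and eosinophils had a median log2 fold change of -1.37 over 8 tested of 11, with 7 below 0 and 1 at an unadjusted p under 0.05. It was -0.64 without DE library 1 and -0.36 in the fit of groups without pirfenidone. Summed, the 11 were at 181.4, 198.7 and 177.2 CPM in RIC+DE and at 197.7, 122.4 and 172.1 CPM in DE. The sum overlapped and was not lower in RIC+DE. Plasma cell genes had a median of -0.72 over 10 tested, with 4 at an unadjusted p under 0.05, and of 0.23 without DE library 1. Neutrophil genes had a median of -0.48 over 13 tested, none at an unadjusted p under 0.05, and of -0.02 with the length trend removed. Summed, the neutrophil genes were at 676.9, 227.5 and 413.6 CPM in RIC+DE and at 548.6, 547.4 and 358.6 CPM in DE, and overlapped. Il22ra2, the soluble binding protein of interleukin 22, was at 0.517, 0.980 and 1.23 CPM in RIC+DE and at 8.65, 0.896 and 9.49 CPM in DE. Apol7c was at 1.88, 1.73 and 2.04 CPM in RIC+DE and at 24.2, 0.746 and 14.4 CPM in DE. For both genes DE libraries 1 and 3 were high and DE library 2 was at the level of RIC+DE.

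Genes of injured epithelium in transition between alveolar types had 10 of 11 below 0, 4 at an unadjusted p under 0.05, and a median of -0.43. Mesothelial genes were split evenly, with 5 of 10 above 0 and a median of 0.01. Genes that answer glucocorticoids had 6 of 13 above 0 and a median of -0.06. A list of 5 long RNAs kept in the nucleus was divided, with 3 above 0 and 2 below. Its median was 1.16, with 2 at an unadjusted p under 0.05, both higher. RIC+DE lay wholly above DE for 2 (21% of all genes) and wholly below for 2 (20.6%). The median was 0.71 with the length trend removed and 0.68 without a batch term. Summed, the 5 were at 2363, 2532 and 2645 CPM in RIC+DE and at 2580, 2498 and 2225 CPM in DE, and overlapped.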
